A study of Homo sapiens with 6 samples.

Results

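The genes described here are 10 genes of the extracellular matrix out of 59653 gene symbols in the count table. They encode the matricellular proteins periostin (POSTN), tenascin C (TNC), SPARC and thrombospondins 1 and 2 (THBS1, THBS2), the adhesive glycoprotein fibronectin (FN1), the large proteoglycan versican (VCAN), and the small leucine-rich proteoglycans biglycan (BGN), decorin (DCN) and lumican (LUM). They were listed by name with their response to SOX2 siRNA in view: POSTN and TNC were known to be lower and BGN higher. Their differences between the groups are therefore given as a description, without p-values.

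RNA was sequenced from PA1, an established cell line from a human ovarian teratocarcinoma, labelled wildtype in genotype. All cells were transfected with siRNA in adherent culture, and after 24 h they were moved to non-adherent plates coated with poly-HEMA for 72 h of growth in suspension. The 3 control libraries received a negative control siRNA and the 3 SOX2 siRNA libraries received siRNA against the transcription factor SOX2, for which 2 siRNAs are named without saying whether they were pooled. All libraries come from 1 cell line, and the labels do not say whether replicates were separate cultures, so the error between them may be technical.

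Matricellular proteins are secreted into the matrix, where they modulate how cells attach and respond to growth factors more than they build fibres. Fibronectin is assembled into fibrils through integrins and carries cell attachment. Versican binds hyaluronan and holds a hydrated, loose matrix, and the small leucine-rich proteoglycans bind collagen fibrils and growth factors of the TGF-beta family. In embryonic tissue fibronectin, versican and tenascin C mark the provisional matrix through which cells move, while decorin and lumican are typical of mature connective tissue.

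Total counts ranged from 25152313 to 32753184 per library, and the groups overlapped (exact permutation p = 0.5, two-sided, where 3 against 3 libraries cannot go below 0.1). SOX2 itself had between 6647 and 8093 counts in control and between 1513 and 1776 in SOX2 siRNA libraries. Of the 9 markers of pluripotent cells examined, LIN28A, LIN28B, POU5F1, SALL4 and DNMT3B had at least 2403 counts in every library, L1TD1 and DPPA4 had at most 100 counts, and TDGF1 had at most 3. The libraries were not alike in one respect that does not follow the groups. A set of 8 genes (LYZ, TFF1, REG4, CLCA1, AGR2, TSPAN8, CLDN18 and ALB), chosen after their values were seen, summed to 48.6, 32.3 and 6.26 CPM (counts scaled to library size) in control replicates 1 to 3 and to 49.95, 4.11 and 31.5 CPM in SOX2 siRNA replicates 1 to 3. Results were also computed without control replicate 3 and SOX2 siRNA replicate 2, which had the least of these transcripts. The libraries kept hold more of them, so this exclusion shows only how far the values depend on that pair. The log2 fold changes of TNC and SPARC were then -1.19 and 0.01, against -1.23 and -0.01 with all libraries. The other 7 tested genes moved by less than their spread between replicates.

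To show the genes that the results turn on, the 250 bases before the RefSeq transcription start of POSTN, TNC, VCAN, FN1 and BGN are printed 5′ to 3′ on the gene's strand (RefSeq, GRCh38.p14). Capitals mark matches to 3 motifs, chosen after the windows were read. ATATAA is a form of the core of a TATA box. ATTGTT is a form of the core of sites bound by SOX proteins, and ATGCAAAT is the octamer bound by POU factors. The windows are chr13:37598769-37599018 (minus strand) for POSTN, chr9:115118158-115118407 (minus strand) for TNC, chr5:83471494-83471743 (plus strand) for VCAN, chr2:215436069-215436318 (minus strand) for FN1 and chrX:153494730-153494979 (plus strand) for BGN.
POSTN: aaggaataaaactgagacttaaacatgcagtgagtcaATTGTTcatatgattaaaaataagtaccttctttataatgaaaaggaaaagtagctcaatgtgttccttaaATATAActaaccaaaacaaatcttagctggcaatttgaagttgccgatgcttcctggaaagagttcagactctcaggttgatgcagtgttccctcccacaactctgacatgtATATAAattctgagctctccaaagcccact
TNC: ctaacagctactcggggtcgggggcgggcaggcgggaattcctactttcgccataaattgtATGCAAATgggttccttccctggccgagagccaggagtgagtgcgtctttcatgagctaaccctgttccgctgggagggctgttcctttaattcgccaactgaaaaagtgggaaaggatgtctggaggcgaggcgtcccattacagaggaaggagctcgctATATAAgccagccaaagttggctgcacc
VCAN: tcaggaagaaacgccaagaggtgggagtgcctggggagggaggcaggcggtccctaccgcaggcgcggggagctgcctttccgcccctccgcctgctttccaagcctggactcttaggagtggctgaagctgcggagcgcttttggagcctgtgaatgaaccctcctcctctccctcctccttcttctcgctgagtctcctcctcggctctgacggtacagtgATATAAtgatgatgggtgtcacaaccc
FN1: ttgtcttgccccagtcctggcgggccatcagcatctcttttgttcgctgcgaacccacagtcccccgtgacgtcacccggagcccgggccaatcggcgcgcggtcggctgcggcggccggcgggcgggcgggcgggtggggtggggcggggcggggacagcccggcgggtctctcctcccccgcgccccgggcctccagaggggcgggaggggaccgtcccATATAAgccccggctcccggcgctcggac
BGN: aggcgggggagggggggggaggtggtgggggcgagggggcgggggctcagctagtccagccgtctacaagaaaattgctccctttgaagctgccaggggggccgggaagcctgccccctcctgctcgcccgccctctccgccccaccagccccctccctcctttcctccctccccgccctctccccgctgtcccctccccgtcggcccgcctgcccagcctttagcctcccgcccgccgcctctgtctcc

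Of the 10 genes, 8 had an entry in the promoter table: these 5, SPARC, THBS1 and THBS2. Except that of THBS1, these windows reach into the genes' GENCODE 29 spans, and those of VCAN and SPARC lie wholly inside them. The distances given here therefore hold for the RefSeq start only. The letters ATATAA began 30 bases before the start in POSTN and THBS2, 29 in FN1, 28 in TNC and 27 in VCAN. On the gene's strand, with the first base 20 to 40 bases before the start, this match was present in 5 of the 8 windows. It was present there in 1.26% of all 35116 promoters. The letters were chosen after these windows were read, so nothing is read from the difference. Over the whole window and both strands ATATAA was present in 7.63% of promoters, and POSTN had a further match 142 bases before its start. The genes with this match include lower ones (POSTN, TNC, VCAN, THBS2) and the higher FN1, while the windows of BGN, SPARC and THBS1 lacked it. ATTGTT on either strand was found in POSTN, 213 bases before the start, and in no other window of the 8, against 8.98% of all promoters. Other forms of the SOX core were not searched, such as TTTGTT. Its letters occur in the printed FN1 window and, on the opposite strand as AACAAA, in that of POSTN. The other windows are therefore not shown to lack a SOX core. The octamer ATGCAAAT, on either strand, was found in TNC, 189 bases before the start, against 1.63% of all promoters. No match of 1 motif overlapped a match of another in these windows. The POSTN window is poor in G and C (36.4%, against a median of 58.0% over all promoters), and those of FN1 and BGN are rich in them (76.4% and 74.0%). A match describes letters only, and no binding was measured.

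POSTN, which binds collagen and integrins and is typical of remodelling tissue, had the lowest log2 fold change of the 10 genes. Its level was 21.1, 24.9 and 23.4 CPM in control replicates 1 to 3 and 2.65, 2.13 and 3.01 CPM in SOX2 siRNA replicates 1 to 3. Every SOX2 siRNA library lay far below every control library, and the raw counts were 623 to 696 against 69 to 90. The mean was 8.90-fold lower, with a log2 fold change of -3.15 (SE 0.107, edgeR), the eighth lowest of 17592 tested genes. POSTN spans chr13:37562583-37598844 (GENCODE 29, GRCh38) and no other annotated gene overlaps it. Its nearest coding neighbours, TRPC4 and CSNK1A1L, had means of at most 0.303 CPM in either group and were too low to test.

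TNC, a large hexameric glycoprotein that weakens adhesion to fibronectin, was at 256, 251 and 266 CPM in control and at 111, 108 and 112 CPM in SOX2 siRNA libraries. The groups did not overlap and the libraries within a group lay close together, with coefficients of variation of 3.03% and 1.80%. The mean was 2.34-fold lower (log2 fold change -1.23, SE 0.0371). The exons of DELEC1 on the opposite strand overlap those of TNC (chr9:115019578-115118257), and whether counting used strand is not given in the sources used here. DELEC1 had at most 5 counts in any library, where TNC had at least 3338. Of the coding genes next to TNC, TNFSF8 had 0 counts in every library, which in each allows at most 3 counts or 0.0909 to 0.120 CPM, and PAPPA, 1035547 bases away, fell (266 ± 5.36 CPM in control, 171 ± 7.67 CPM in SOX2 siRNA, SD, n = 3, log2 fold change -0.64 with SE 0.0385, edgeR adjusted p = 9.09e-10).

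The thrombospondins, which bind CD47, CD36 and integrins and restrain blood vessel growth, had log2 fold changes of opposite sign. THBS1 was at 25.8, 24.9 and 22.0 CPM in control and at 28.2, 25.7 and 33.4 CPM in SOX2 siRNA libraries, so that the groups overlapped (log2 fold change 0.26, SE 0.102). THBS2 was at 1.48, 1.76 and 2.46 CPM in control and at 0.894, 0.959 and 0.703 CPM in SOX2 siRNA libraries. All 3 SOX2 siRNA libraries were below the control libraries, at 21 to 31 counts against 44 to 71 (log2 fold change -1.15, SE 0.240). With so few counts the counting error alone is 13.5% of the level in control and 19.5% in SOX2 siRNA libraries. Per kilobase of transcript, the ratio of THBS1 to THBS2 was 9.90 ± 3.13 (SD, n = 3) in control and 25.9 ± 7.97 after SOX2 siRNA. Exons of FSIP1, on the opposite strand with 45 to 72 counts, overlap those of THBS1, which had 625 to 998. The other annotated genes that overlap THBS1 (AC037198.1 and AC037198.2) had at most 3 counts, and BX322234.1, which overlaps the span of THBS2 but none of its exons, had 26 to 41.

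SPARC, a calcium- and collagen-binding protein that chaperones collagen, had nearly the same level in both groups. It was at 251, 249 and 255 CPM in control and at 253, 246 and 251 CPM in SOX2 siRNA libraries. The groups overlapped, and the log2 fold change was -0.01 (SE 0.0335), with coefficients of variation of 1.36% and 1.59%, close to the counting error of 1.17% and 1.14%. CLMAT3, whose exons overlap it on the opposite strand, had at most 1 count.

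FN1 was at 513, 457 and 451 CPM in control and at 1231, 1104 and 1246 CPM in SOX2 siRNA libraries. Every SOX2 siRNA library exceeded every control library by more than the range within either group. The mean was 2.52-fold higher (log2 fold change 1.33, SE 0.0626), and no annotated gene overlaps FN1 (chr2:215360440-215436172). VCAN went the other way, from 1630.4, 1806 and 1689.9 CPM in control to 838, 892 and 869.55 CPM in SOX2 siRNA libraries. Here too the groups were far apart, the mean being 1.97-fold lower (log2 fold change -0.98, SE 0.0402). Exons of VCAN-AS1 on the opposite strand overlap those of VCAN (chr5:83471465-83582303), and VCAN-AS1 had 1 to 3 counts per library.

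Of the 3 small proteoglycans, BGN had the most counts. It was at 8.12, 6.87 and 7.75 CPM in control and at 38.6, 37.9 and 38.7 CPM in SOX2 siRNA libraries. No library of one group came near the other, at 172 to 268 counts against 1157 to 1226. The mean was 5.07-fold higher (log2 fold change 2.33, SE 0.0666), the highest of the 9 tested genes here. BGN lies at chrX:153494939-153509554, and HAUS7, which overlaps its span on the opposite strand without exon overlap, had 216 to 313 counts in control and 294 to 320 in SOX2 siRNA libraries. Its coding neighbours TREX2 and ATP2B3 had means of at most 0.204 CPM in either group.

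LUM was at 1.30, 1.197 and 0.726 CPM in control and at 1.62, 1.58 and 1.44 CPM in SOX2 siRNA libraries. The groups did not overlap, but the control libraries spread over 21 to 43 counts against 43 to 51, and the log2 fold change was 0.52 with an SE of 0.234. DCN had 0, 1 and 0 counts in control and 2, 4 and 2 counts in SOX2 siRNA libraries, at or about the 3 counts taken as the smallest amount told from none. It did not pass the filter on low counts and was not tested. The summed 8 counts against 1 give a ratio of 7.53 with a 95% exact interval of 1.01 to 334, which covers counting error only. DCN and LUM are neighbours on chromosome 12, 28653 bases apart, and KERA, the small proteoglycan gene on the far side of LUM, had 0 counts in every library.

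**Figure D1:**
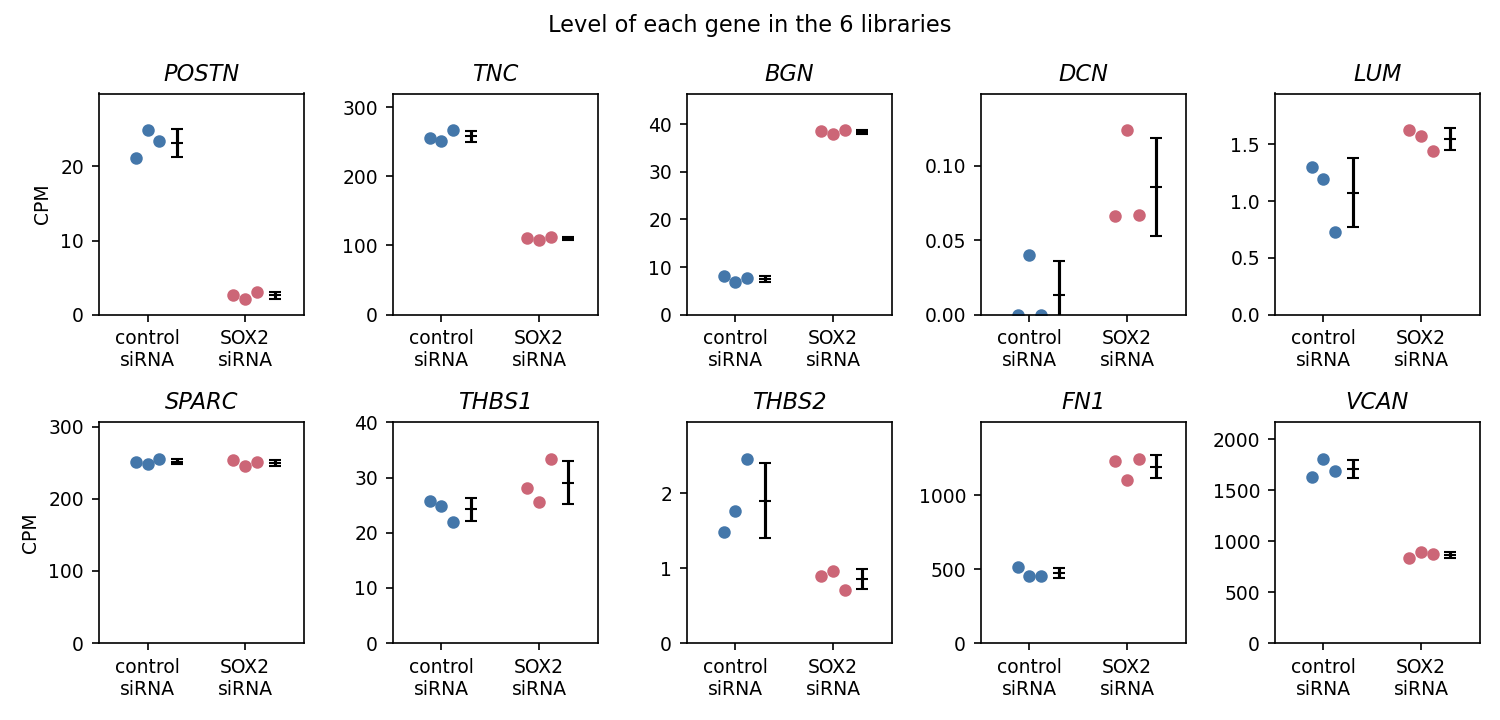
Level of each of the 10 genes in CPM (linear axes from 0, one scale per gene), with a point per library and the mean ± SD of 3 libraries in black beside each group. POSTN, TNC and VCAN sit lower and BGN and FN1 higher in all 3 SOX2 siRNA libraries, SPARC is level, and DCN is near 0.

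By edgeR's quasi-likelihood test with Benjamini-Hochberg adjustment over all genes, 6 of the 9 tested genes passed a threshold of 0.05: POSTN, TNC, VCAN and THBS2 lower, BGN and FN1 higher. LUM, SPARC and THBS1 did not. Without control replicate 3 and SOX2 siRNA replicate 2, 7 of the 9 passed. The same number passed by DESeq2's Wald test and without SOX2 siRNA replicate 2 alone. With no filter beyond 1 count 7 of 10 passed, and every other alternative gave 6. In the main edgeR fit 28.2% of all tested genes passed, 14.8% higher and 13.4% lower. Control and SOX2 siRNA libraries were fully separated for 7 of the 9 tested genes, and for 41.8% of all tested genes. The 10 genes were chosen on this contrast, so nothing is read from these calls, from their number over the alternatives or from these shares. In bulk RNA, fewer cells making a transcript and less of it per cell cannot be told apart.

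**Figure D2:**
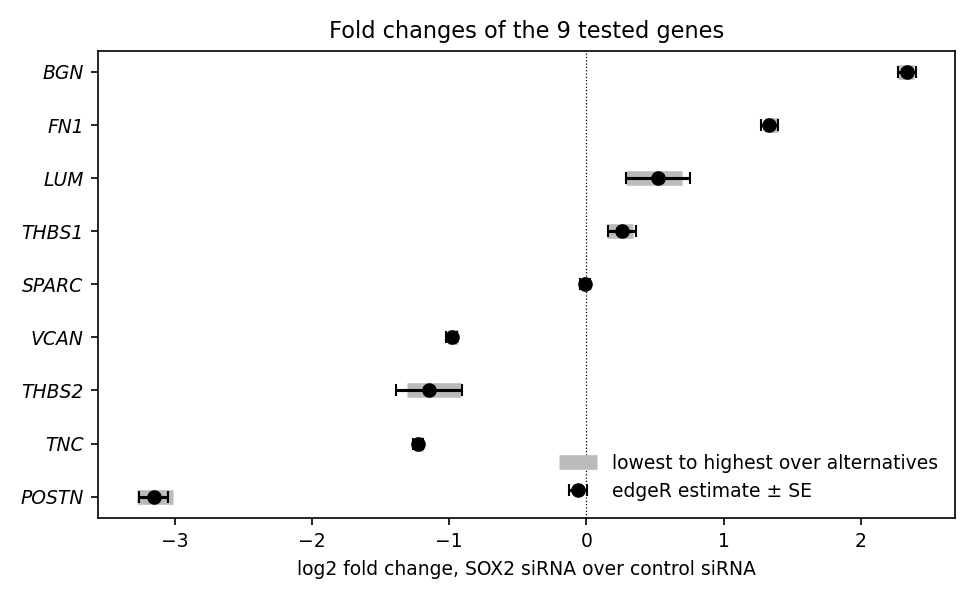
The log2 fold change of SOX2 siRNA over control siRNA for the 9 tested genes (points, with the SE as bars) and the lowest to highest value over the alternative settings (grey). The estimates run from -3.15 for POSTN to 2.33 for BGN, and SPARC lies at -0.01.

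Levels were compared between genes as CPM per kilobase of the longest coding transcript in GENCODE 29, which may not be the transcript these cells make. In control libraries VCAN was highest at 135 ± 7.08 CPM per kilobase, followed by SPARC at 68.0 ± 0.923, FN1 at 53.2 ± 3.85 and TNC at 33.7 ± 1.02 (SD, n = 3). POSTN followed at 6.86 ± 0.565, then BGN at 3.15 ± 0.268 and THBS1 at 3.12 ± 0.260, whose libraries overlapped. LUM (0.358 ± 0.102) and THBS2 (0.333 ± 0.0879) also overlapped, and DCN was last. In SOX2 siRNA libraries the order began with FN1 at 134 ± 8.74 CPM per kilobase. VCAN (68.6 ± 2.18) and SPARC (67.5 ± 1.07) came next and overlapped each other. BGN, at 16.0 ± 0.184, then stood above TNC, at 14.4 ± 0.260, and POSTN, at 0.770 ± 0.131, stood below THBS1, at 3.74 ± 0.507 (SD, n = 3). By coding length in place of transcript length, SPARC came first in both groups, with 277 CPM per kilobase in control libraries.

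**Figure D3:**
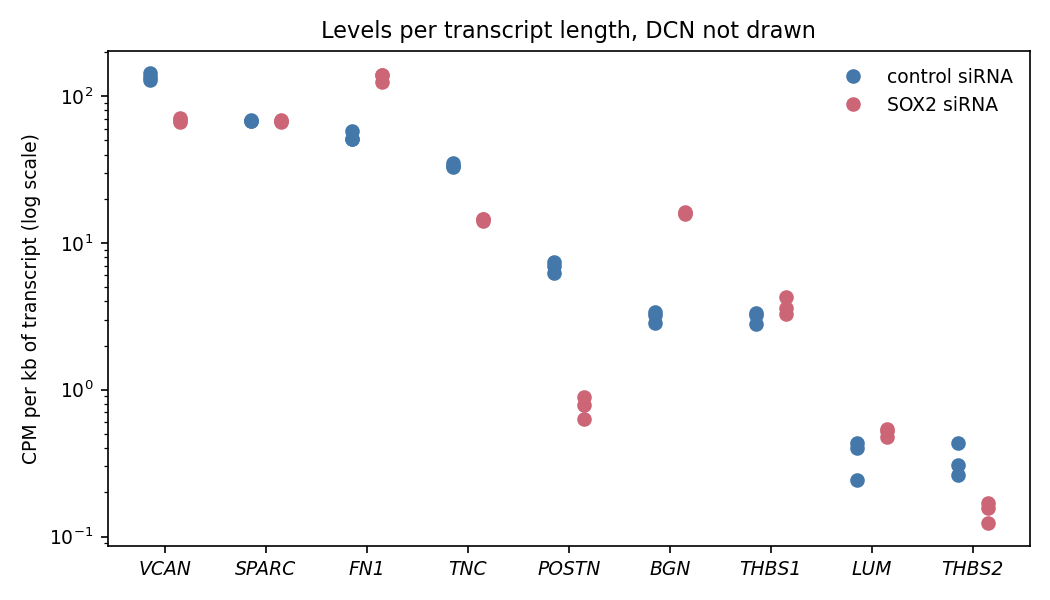
CPM per kilobase of transcript (log axis) for 9 of the genes, ordered by their mean in control libraries, with a point per library; DCN, which had 0 counts in 2 control libraries, is not drawn. After SOX2 siRNA FN1 lies above VCAN, BGN moves above TNC, and POSTN moves below THBS1.

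The summed level of the 10 genes per kilobase was 302, 309 and 302 CPM per kilobase in control and 309, 296 and 313 in SOX2 siRNA libraries, so that the groups overlapped. Its make-up differed. VCAN took 44.5% ± 1.79 of the control sum and 22.5% ± 1.276 of the SOX2 siRNA sum, and FN1 took 17.5% ± 1.39 and 43.8% ± 1.61 (SD, n = 3). SPARC took 22.4% ± 0.544 and 22.1% ± 0.418. These shares depend on the length used. By coding length SPARC held the most, at 48.4% ± 0.797 (SD, n = 3) in control and 47.1% ± 0.595 after SOX2 siRNA. VCAN then took 29.3% ± 1.37 and 14.6% ± 0.768, and FN1 took 11.1% ± 0.862 and 27.5% ± 1.15. The ratio of VCAN to FN1 per kilobase, which does not depend on how libraries are scaled, was 2.24, 2.79 and 2.64 in control and 0.480, 0.570 and 0.492 in SOX2 siRNA libraries. The ratio of TNC to SPARC was 0.496 ± 0.00828 (SD, n = 3) in control and 0.213 ± 0.00222 after SOX2 siRNA. Per kilobase, the ratio of POSTN to BGN was 1.85, 2.58 and 2.15 in the control libraries, and the ratio of BGN to POSTN was 20.5, 24.95 and 18.1 in the SOX2 siRNA libraries. By coding length, the mean ratio of TNC to SPARC was 0.141 in control and 0.0607 after SOX2 siRNA. By the same length, POSTN to BGN was 1.36 in control and BGN to POSTN was 34.2 after SOX2 siRNA. In raw counts, which weigh long transcripts more, the 10 genes took 0.271% to 0.281% of each control library and 0.241% to 0.253% of each SOX2 siRNA library.

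**Figure D4:**
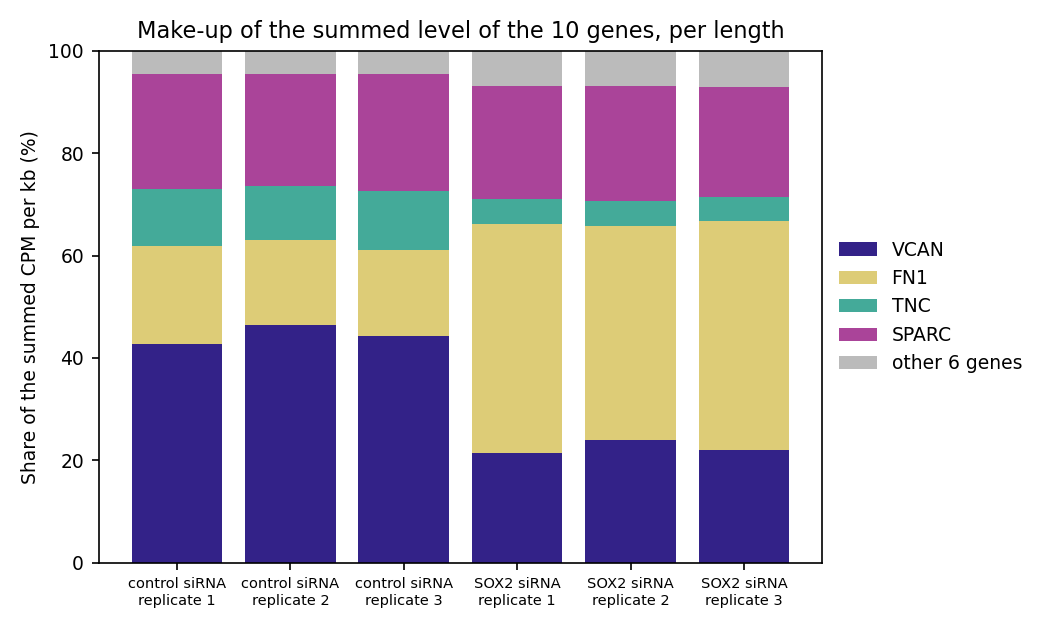
Share of the summed CPM per kilobase of transcript of the 10 genes taken by VCAN, FN1, TNC, SPARC and the other 6 genes together, with a bar for each library. The VCAN share is 42.8% to 46.4% in control and 21.5% to 23.9% in SOX2 siRNA libraries, and the FN1 share is 16.6% to 19.1% and 42.0% to 44.8%.

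The surrounding matrix genes were examined in 7 lists written by function. Of their 134 genes 100 were tested, and 42 rose and 14 fell after SOX2 siRNA (edgeR, adjusted p under 0.05 over all genes). That is 56% of those tested, against 28.2% of all tested genes. The median log2 fold change was 0.17, against -0.00085 over all tested genes. The lists were chosen with earlier results of these data known, so nothing is read from these differences. The 14 that fell came to 9 without control replicate 2 and to 7 without control replicate 3 and SOX2 siRNA replicate 2, where 34 rose. All 41 genes called in that setting were among the 56. Each adjusted p below is from the same test.

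Among other matricellular genes, 2 of 14 tested rose and 1 fell, with a median log2 fold change of 0.06. FSTL1, a secreted relative of SPARC, rose from 401 ± 12.4 CPM (SD, n = 3) to 546 ± 7.78 CPM (edgeR adjusted p = 2.40e-08). THBS3 rose by 0.30 on the log2 scale (edgeR adjusted p = 7.29e-04). SMOC1, a SPARC-related protein, had a log2 fold change of -0.27 (edgeR adjusted p = 0.0313), a call lost in 4 of 15 alternatives, with adjusted p up to 0.118. The CCN family members CCN1 and CCN2, osteopontin (SPP1) and the periostin relative TGFBI did not pass, with log2 fold changes of 0.26, 0.17, -0.03 and -0.10.

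Of 15 other small leucine-rich genes only 5 were tested. PRELP, which anchors basement membranes to connective tissue, rose from 0.400 ± 0.155 CPM (SD, n = 3) to 1.55 ± 0.126 CPM (log2 fold change 1.91, edgeR adjusted p = 5.30e-05), at 7 to 19 counts in control. TSKU rose by 0.24 on the log2 scale, a call lost in 3 of 15 alternatives (edgeR adjusted p = 0.0164, up to 0.0899). The other 3 tested genes, FMOD, CHADL and PODN, did not pass. The cluster mates ASPN, OMD, OGN and ECM2 were too low to test.

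Of 11 tested genes of hyaluronan and its binding proteoglycans, with which versican associates, 4 rose and 1 fell. The hyaluronan synthase HAS3 rose from 32.1 ± 1.38 CPM (SD, n = 3) to 84.2 ± 7.15 CPM (log2 fold change 1.39, edgeR adjusted p = 1.38e-10). HAS2, at 25 to 41 counts in control and 65 to 76 in SOX2 siRNA libraries, rose by 1.08 on the log2 scale (edgeR adjusted p = 4.24e-04). The hyaluronidase HYAL2 rose by 0.26 (edgeR adjusted p = 5.15e-04), while CEMIP2, reported as a cell surface hyaluronidase, fell from 165 ± 6.06 CPM (SD, n = 3) to 85.1 ± 3.94 CPM (edgeR adjusted p = 1.80e-11). The hyaluronan receptor CD44 did not pass, with a log2 fold change of -0.12.

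Receptors for the 10 genes' products gave 9 higher and 4 lower of 18 tested, with a median log2 fold change of 0.26. ITGA8, the integrin chain that binds fibronectin and tenascin C with ITGB1, rose from 5.32 ± 1.11 CPM (SD, n = 3) to 50.6 ± 1.11 CPM (log2 fold change 3.25, edgeR adjusted p = 1.38e-11). CD47, a thrombospondin receptor, rose from 135 ± 5.41 CPM (SD, n = 3) to 242 ± 13.3 CPM (edgeR adjusted p = 2.19e-10). The syndecan SDC1 rose from 19.0 ± 1.77 CPM (SD, n = 3) to 39.0 ± 1.58 CPM (edgeR adjusted p = 1.57e-09). ITGB8, CACNA2D1 (a calcium channel subunit that binds thrombospondins) and ITGA9 (a tenascin C receptor chain) had log2 fold changes of -0.79, -0.36 and -0.24, and edgeR adjusted p = 3.12e-06, 3.62e-05 and 0.00998. The call of ITGA9 was lost in 2 of 15 alternatives, with adjusted p up to 0.0670.

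In the list of fibre assembly and crosslinking, 16 of 27 tested genes rose and 3 fell (median log2 fold change 0.29). FBLN2, FBN2 and LOXL4 (a collagen and elastin crosslinker) rose by 0.67, 0.60 and 2.04 on the log2 scale, with edgeR adjusted p = 2.58e-09, 1.44e-08 and 1.52e-08. LOXL4 was low, at 1.26 ± 0.0955 CPM (SD, n = 3) in control and 5.20 ± 0.363 CPM after SOX2 siRNA. FBLN1, which binds fibronectin and versican, fell from 192 ± 3.31 CPM (SD, n = 3) to 160.2 ± 2.99 CPM (edgeR adjusted p = 2.36e-05). LTBP2 had a log2 fold change of -0.54 (edgeR adjusted p = 0.00332). MFAP5, at 6 to 18 counts, had one of -1.16 (edgeR adjusted p = 0.0398), a call lost in 11 of the 14 alternatives that gave a value, with adjusted p up to 0.216.

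Of the enzymes that build the chondroitin and dermatan sulfate chains carried by versican, biglycan and decorin, 7 rose and 3 fell of 19 tested. CHST11, CHPF and DSE (which converts chondroitin to dermatan sulfate) rose by 0.67, 0.93 and 0.38 on the log2 scale, with edgeR adjusted p = 2.53e-08, 2.07e-07 and 2.88e-06. CHST15, DSEL and FAM20B had log2 fold changes of -0.62, -0.63 and -0.12, and edgeR adjusted p = 0.00540, 0.0322 and 0.0194. These calls were lost in 1, 6 and 3 of 15 alternatives, with adjusted p up to 0.102, 0.131 and 0.131. Of the 6 proteases known to cleave versican, 2 rose and 2 fell. ADAMTS9 rose from 92.6 ± 1.03 CPM (SD, n = 3) to 234 ± 20.2 CPM (edgeR adjusted p = 4.89e-10). ADAMTS1 and ADAMTS4 had log2 fold changes of -0.76 and -0.57 (edgeR adjusted p = 1.49e-04 and 0.00106). ADAMTS15 had one of 0.57 (edgeR adjusted p = 0.0441), a call lost in 8 of 15 alternatives, with adjusted p up to 0.170. For ADAMTS4 the call was lost in 1, with an adjusted p of 0.0547.

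**Figure D5:**
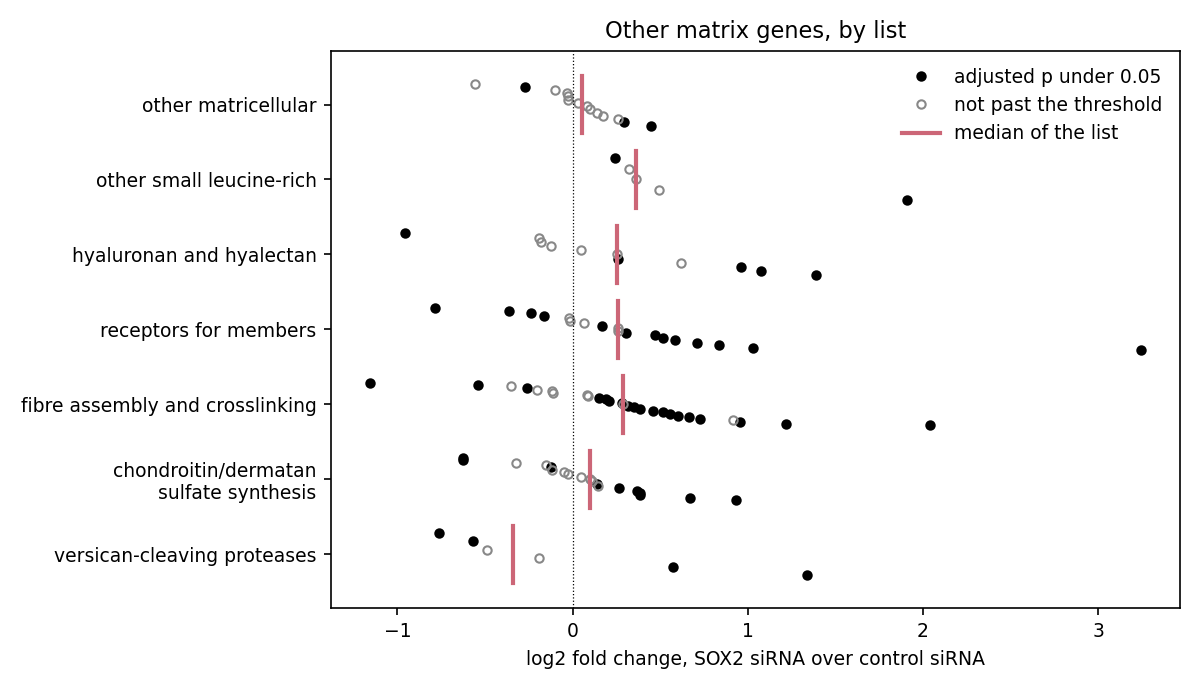
The log2 fold change of SOX2 siRNA over control siRNA for the 100 tested genes of the 7 lists, filled where the adjusted p was under 0.05, with each list's median as a bar. Most filled points lie to the right of 0, with ITGA8 farthest at 3.25, and MFAP5 is farthest to the left at -1.16.

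Markers of other cell types were read beside these values, since several matrix genes are typical of fibroblasts. Of all tested genes 14.8% rose and 13.4% fell in the same test. The marker lists are short, so nothing is read from how many of their genes were called. Of 9 fibroblast markers 4 of 5 tested rose (COL1A1, PDGFRA, PDGFRB and THY1), and their summed level was 429 to 482 CPM in control and 623 to 664 CPM in SOX2 siRNA libraries. Of the other fibroblast markers COL1A2 did not pass, FAP and TWIST2 had at most 4 counts in any library, COL3A1 at most 8, and DPT had 0. Of 6 endothelial markers 4 fell, with ERG at most at 2 counts and CLDN5 at 0, and the sum was 112 to 116 CPM against 83.3 to 86.7 CPM. Of 6 smooth muscle and pericyte markers only RGS5 rose, from 62.3 ± 1.18 CPM (SD, n = 3) to 108.7 ± 4.94 CPM. ACTA2, CNN1, TAGLN and DES did not pass, and MYH11 was too low to test. The sum, which includes RGS5, was 181 to 191 CPM against 222 to 239.7 CPM. Of the leukocyte markers PTPRC and CD3E had at most 3 counts, CD14 rose on 8 to 21 counts (log2 fold change 0.87, edgeR adjusted p = 0.0428), and the sum, most of it LYZ, was 2.94 to 15.5 CPM against 2.54 to 19.0 CPM. Of the pluripotent cell markers, LIN28A, LIN28B, DNMT3B and POU5F1 rose by 0.70, 0.59, 0.40 and 0.17 on the log2 scale (edgeR adjusted p = 1.80e-11, 5.09e-09, 5.79e-07 and 0.00798). SALL4, DPPA4 and L1TD1 did not pass, and the sum of all 9 markers, SOX2 included, was 1745 to 1769.5 CPM in control and 2164 to 2187 CPM in SOX2 siRNA libraries. The part of these shifts in the values of the 10 genes was not tested.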

How the data were processed

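The deposited table holds whole-number read counts per gene symbol for 6 libraries. Trizol extraction and KAPA mRNA HyperPrep libraries are given in the labels' protocols. Per the submitters' processing notes, the tools were bcl2fastq 2.20.0, STAR 2.7.3a, Salmon 0.14.1 and DESeq2 1.28.1, and the build GRCh38.p13. The annotation and the use of strand are not given in the sources used here.

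Counts were fitted in edgeR 4.0.16 (R 4.3.3): filterByExpr with a minimum count of 10, TMM scaling, quasi-likelihood F-test with robust=TRUE on group, Benjamini-Hochberg adjustment over 17592 genes, threshold 0.05. CPM uses TMM-scaled library sizes. SEs were derived from the same fit, as the absolute log2 fold change divided by the square root of its F statistic. Depth was 25152313 to 32753184 counts, and 3 counts equal 0.0909 to 0.120 CPM; intervals and floors cover counting error only. Alternatives were DESeq2 1.42.0 and limma 3.58.1 (voom), other scalings and filters, a replicate block, each library left out, and the exclusion of a library pair, added after seeing the data. Procedures were tested on simulated data.

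The 10 genes, the lists and the motifs were chosen with earlier results of these data known. Besides the 10 genes and SOX2, the text names in each list up to 3 called genes of smallest p per direction, overlapping genes, and the coding neighbours of POSTN, TNC and BGN; others were chosen after their values were seen. Lengths and positions are from GENCODE 29, promoters from RefSeq (GRCh38.p14).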

Additional observations from a re-analysis of the deposited data

How the results depend on the processing

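Over 15 alternatives the log2 fold changes of the 9 tested genes kept their sign, except that of SPARC, which lay between -0.03 and 0.01. POSTN ranged from -3.27 to -3.02, TNC from -1.25 to -1.19, VCAN from -1.01 to -0.94, THBS2 from -1.30 to -0.92, BGN from 2.27 to 2.39 and FN1 from 1.30 to 1.40. LUM ranged from 0.29 to 0.70 and THBS1 from 0.15 to 0.34, which is wide for the size of their estimates. Without control replicate 3 and SOX2 siRNA replicate 2, a pair left out after seeing the data, 2833 genes were called in place of 4964, 7 in place of 14 related genes fell, TNC was at -1.187 and SPARC at 0.0135; the fit then holds fewer libraries. Leaving out 1 library gave 3760 to 4863 called genes, the lowest without SOX2 siRNA replicate 2. It gave 35 to 40 related genes that rose and 9 to 13 that fell, both lowest without control replicate 2. Without 1 library SPARC lay between -0.024 and 0.00136. DESeq2's Wald test called 3923 genes.

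A replicate block gave 5177 called genes, with 45 related genes higher and 14 lower. Deviations of log2 CPM from the group mean were correlated over the tested genes between same-numbered libraries of the groups, at 0.0581, -0.0554 and -0.0515. Between libraries with unlike numbers these correlations ran from -0.089 to 0.141. Same-numbered libraries were thus no more alike than others, which does not show whether they were handled together. For single related genes and SOX2, 439 values stayed called, 39 values in 9 genes lost the call, and none changed sign. By coding length every level per kilobase moved by more than its replicate spread. Depth limits DCN, THBS2 and LUM. The cause of these shifts was not tested.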

Other observations

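The 8 genes LYZ, TFF1, REG4, CLCA1, AGR2, TSPAN8, CLDN18 and ALB, chosen after their values were seen, were unevenly spread over the libraries in a way that follows neither the groups nor the replicate numbers. LYZ, which encodes lysozyme, had counts of 481, 348 and 61 in the control libraries, by replicate number, and of 542, 48 and 364 in the SOX2 siRNA libraries. REG4 had 335, 130 and 44 counts and 297, 28 and 169. CLCA1 had 213, 76 and 24 counts and 166, 16 and 111, and the mucosal peptide gene TFF1 had 178, 60 and 9 counts and 130, 16 and 76. ALB, which encodes serum albumin, had 68, 22 and 3 counts and 57, 2 and 28. All 8 genes were lower in control replicate 3 and SOX2 siRNA replicate 2 than in each of the other 4 libraries.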
